A study of Mus musculus with 6 samples.

Results

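Of 59 single oocytes from aged mice, 21 drew more than 5% of their gene counts from mitochondrially encoded transcripts (35.6%, exact binomial interval 23.6 to 49.1%), and these 21 oocytes are described here against the other 38. The oocytes were mouse eggs at metaphase II (MII), the arrest in which an ovulated oocyte waits for fertilisation, and their poly(A)-primed cDNA was made by Smart-seq2, which copies whole transcripts of single cells, with 16 PCR cycles. The aged oocytes and 35 young oocytes, which serve as a further reference, carried no treatment, and each age was deposited as 1 sample with 1 library per oocyte. The labels name no animals, strain, exact age or handling of individual oocytes, and 4 further samples, pools of 10 young oocytes given control or Plat short interfering RNA, were not used here.

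The members were chosen by a measured value, the sum of the 37 mitochondrially encoded entries divided by all gene counts of an oocyte, with the ERCC spike-in RNAs left out. Everything below is therefore a description of 2 sets of oocytes of the same sample, with no test: oocytes of 1 sample are not replicates of a condition, and intervals cover counting error only. Reads from PCR without molecular identifiers are not independent molecules, so these intervals may be too narrow. Unless stated otherwise, levels are scaled counts (CPM), a gene's count relative to all nuclear gene counts of the library. The mitochondrial entries were removed from the total, so their counts do not enter the level of a nuclear gene. Nuclear pseudogenes that share mitochondrial sequence stayed in the total and are described at the end. Ratios are log2 of the summed level above 5% over the summed level at or below 5%, with a pseudocount of 1 CPM, which understates the change of low genes.

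An MII oocyte makes almost no new RNA and lives on messenger RNAs stored while it grew. Which of these are translated or destroyed is set largely through their poly(A) tails: cytoplasmic polyadenylation lengthens the tails of some mRNAs during maturation, and the CCR4-NOT deadenylase, brought to its targets by Btg4, shortens those of others. Mitochondrial transcripts are made inside the organelle from its own DNA, and their share of a library is commonly used as a sign of the state of a cell or of its RNA.

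The mitochondrial share separated the sets by a wide margin. It ran from 6.78 to 61.6% (median 32.8%) in the 21 oocytes, from 0.947 to 2.97% (median 1.75%) in the other 38 aged oocytes and from 0.688 to 1.92% (median 1.20%) in the young, where 0 of 35 oocytes passed 5% (exact 95% upper limit 10.003%, or 8.57% by the simpler limit of 3 counts of the total). Just outside the threshold lay aged oocytes 35, 56 and 55, at 2.97, 2.73 and 2.63%, and just inside it oocytes 38, 11 and 59, at 6.78, 6.80 and 11.5%. No aged oocyte lay between 2.97 and 6.78%. By column number the 21 were oocytes 1 to 13, 18, 37 to 40 and 57 to 59. The labels do not say what the numbers stand for, so a shared animal, plate or day cannot be told apart from the mitochondrial share.

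Set against the ERCC counts, the 21 oocytes held more mitochondrial RNA, less nuclear RNA, or both. Mitochondrial counts per ERCC count ran from 0.346 to 7.93 (median 4.41) in them, from 0.178 to 0.768 (median 0.515) in the other 38 and from 0.264 to 1.53 (median 0.966) in the young, and 17 of the 21 exceeded every other aged oocyte. Nuclear counts per ERCC count ran from 0.954 to 56.4 (median 9.70), against 14.4 to 49.0 (median 28.9) in the other 38 and 18.01 to 146 (median 62.6) in the young, and 16 of the 21 were below every other aged oocyte. This scale takes the spike-in as equal in every lysate, which the files cannot show.

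The 21 were not alike on this scale. Oocytes 11 and 38 held 56.4 and 54.8 nuclear counts per ERCC count, above all other aged oocytes, together with 4.12 and 3.98 mitochondrial counts. Oocytes 37, 57, 58 and 59 held 0.346, 0.509, 0.546 and 0.407 mitochondrial counts per ERCC count, within the range of the other 38. They held only 0.954, 2.24, 2.46 and 3.13 nuclear counts, so on this scale these 4 stood apart in nuclear counts alone. The remaining 15 were above the others in mitochondrial counts per ERCC count, and 12 of them also below the others in nuclear counts. The ERCC counts differed too: 8 of the 21 had more than any of the 38. Oocytes 37, 57, 58 and 59 had the most, 989266 to 1553073, against 117428 to 431162 in the 38. Their mitochondrial counts, not set against ERCC, were 426001 to 540100, against 50924 to 219592 in the 38. Whether the amount of spike-in differed was not tested.

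**Figure D1:**
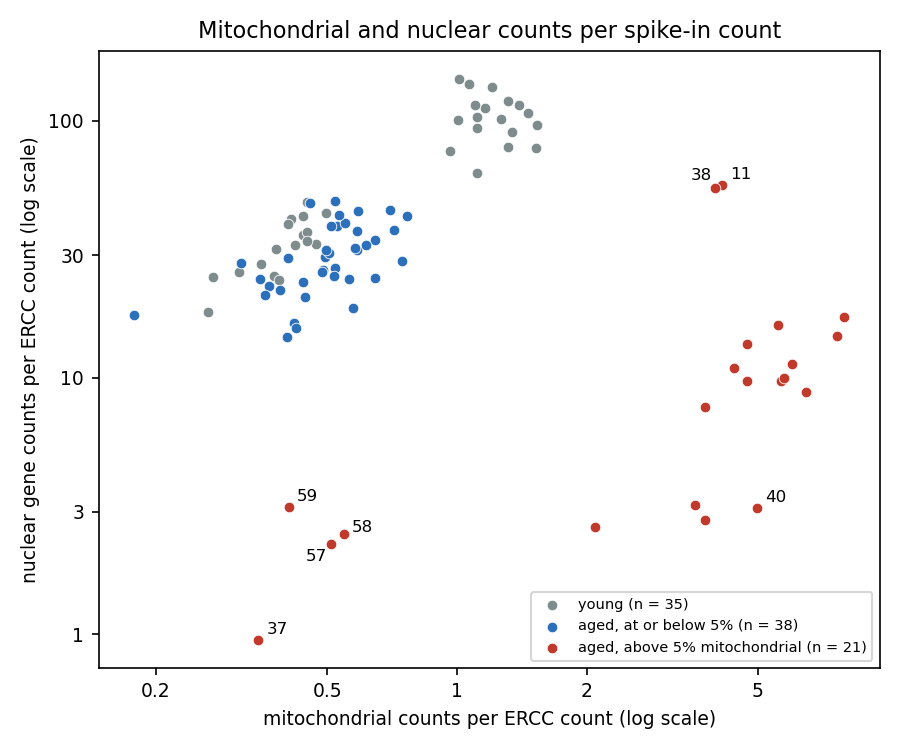
Mitochondrial (x) and nuclear (y) gene counts per ERCC spike-in count, both on log scales, 1 point per oocyte, for 21 aged oocytes above 5% mitochondrial share, 38 aged oocytes at or below it and 35 young oocytes. The numbered oocytes are those described singly: 11 and 38 lie highest in nuclear counts among the aged, 37, 57, 58 and 59 lie at mitochondrial counts of 0.346 to 0.546, and 40 has the highest mitochondrial share.

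Fewer nuclear genes were seen in the 21 oocytes, at their own depth and at equal depth. Their libraries held 1408044 to 8059754 nuclear counts (median 3014737), against 3314970 to 9373775 (median 6951375) in the other 38. Nuclear genes with a count numbered 7369 to 13825 (median 9369) against 14708 to 17607 (median 16271.5), with no overlap. Thinned to 1408044 nuclear counts in every oocyte, they numbered 7345 to 11847 (median 8560) against 12914 to 14210 (median 13608), again with no overlap. At least 5 counts were held by 4467 to 11270 genes against 11197 to 13907.

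What remained was concentrated in fewer entries and differed between the oocytes. The 10 highest nuclear genes took 14.3 to 47.1% of nuclear counts (median 21.7%) in the 21, against 8.76 to 11.8% (median 10.5%) in the other 38. In the 21 these include an annotated ribosomal RNA gene, CT010467.1, at 2.81 to 40.6% (median 7.80%), against 0.890 to 4.25% in the 38. In oocyte 40 it made up 40.6% of nuclear counts, and the 10 together 47.1%. The concentration without it was not tested. Across genes, the profile of an oocyte above 5% correlated with those of the others above 5% at a median Pearson r of 0.59 to 0.76 and with those of the 38 at 0.49 to 0.66, while the 38 correlated among themselves at 0.92 to 0.96. Genes are not independent points, and the part of the smaller number of detected genes in these values was not tested.

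The libraries still carried the markers of oocytes, mostly at lower levels, and no set of somatic cell markers was higher in all of them. The 12 oocyte markers summed to 2164 to 5935 CPM (median 4423) in the 21 and to 23086 to 36149 CPM (median 29524) in the other 38, with no overlap. Of the 12, 11 were at least 2-fold lower and 0 higher, against 38.2% and 15.8% of the 8369 genes compared below. The exception, Dazl, had a log2 ratio of 0.59, with 13 oocytes above all of the 38 and 4 below. Of 14 cumulus and granulosa markers, 7 were at 0 in all 21 oocytes, among them Amh, Fshr and Foxl2, and the sum ran from 0.490 to 94.7 CPM against 49.9 to 109. Of 10 blood and immune markers, Ptprc, Adgre1 and Cd52 were at 0 in all 21. The sum of the 10 ran from 0 to 273 CPM (median 2.94) against 3.94 to 19.5 (median 9.96), and oocytes 2, 9 and 8, at 273, 135 and 24.7 CPM, were above the 38. Hba-a1, an alpha globin gene, was at 11.3 CPM over the 21 and at 0 in the 38. Of 10 stroma and endothelium markers Acta2 was at 0 in all 21, and the sum, 0 to 70.3 CPM, lay below the 38, at 77.2 to 181. The part of these markers in the results below was not tested.

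Among nuclear genes, losses outnumbered gains. Of 8369 nuclear genes with a mean of at least 5 CPM over both sets, 3194 were at least 2-fold lower in the 21 oocytes (38.2%), 1322 at least 2-fold higher (15.8%) and 3853 less than 2-fold apart (46%). Of the 8369, 1315 reached 5 CPM only in the 38 and 315 only in the 21, and such genes could pass only by differing. At least 4-fold lower were 1708 genes (20.4%) and at least 4-fold higher 275 (3.29%), and at least 16-fold lower were 264 (3.15%) against 19 at least 16-fold higher (0.227%). In 893 genes (10.7%) every one of the 21 oocytes was below every one of the 38, and in 99 (1.18%) every one was above. Of 11 pseudogenes that share mitochondrial sequence, described at the end, all but Gm4076 are among the 19. All but Gm4076 and Gm28661 are among the 99. Where reads of these pseudogenes come from the organelle, their direction was fixed by the choice of oocytes.

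These counts depend on the scale, so each direction is relative to the other nuclear transcripts of the same libraries. The median log2 ratio of all 8369 genes was -0.46. With mitochondrial counts kept in the total it was -0.91, and 679 genes were at least 2-fold higher and 4016 lower. With the median over oocytes in place of the sum, which gives oocytes 11 and 38 no extra weight for their depth, it was -1.14 over 7559 genes, with 918 higher and 3966 lower. Per ERCC count the median was -2.31, with 43 genes at least 2-fold higher (0.514%), 6957 lower (83.1%) 0 in which all 21 oocytes were above the 38 (0%) and 867 in which all were below (10.4%). Without oocytes 37, 57, 58 and 59, 128 of 8371 genes were at least 2-fold higher per ERCC count, 5873 lower, and the median was -1.82. A transcript called kept below kept its share of the nuclear counts and not its amount per spike-in.

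On nuclear CPM the 38 other aged oocytes stood close to the young. Their median log2 ratio over the young was 0.10, with 146 of the 8369 genes at least 2-fold higher and 10 lower, while the 21 over the same young oocytes had a median of -0.35 with 1581 higher and 2990 lower. Both ratios share the young oocytes. Per ERCC count, the nuclear counts of the 38 had a median of 28.9 against 62.6 in the young, with overlapping ranges.

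**Figure D2:**
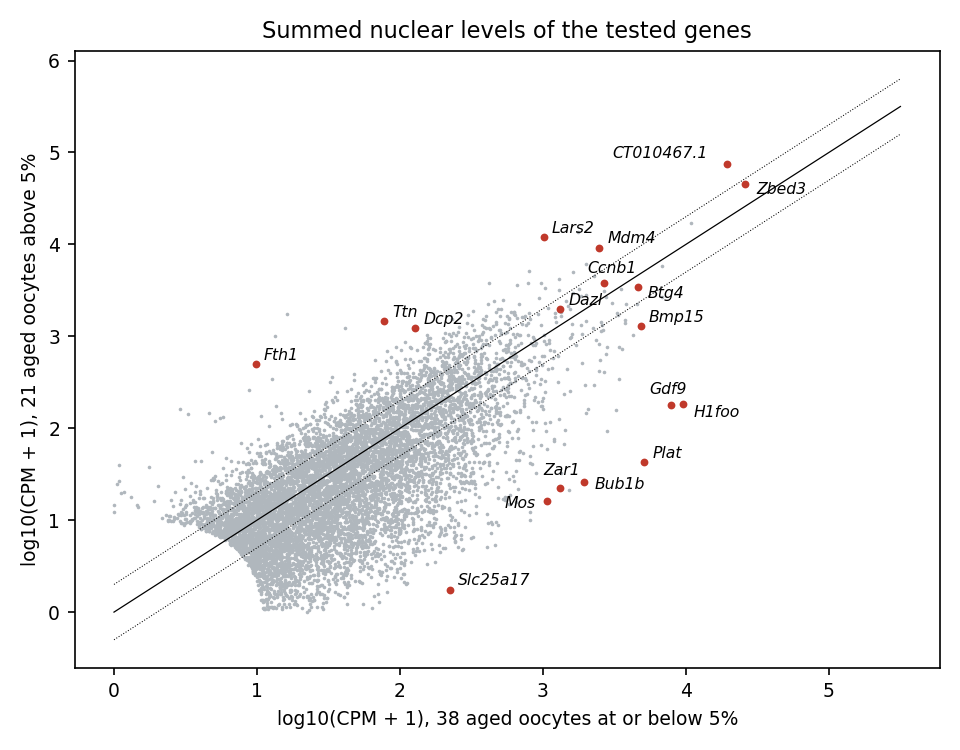
Summed level of each of 8369 nuclear genes in the 21 aged oocytes above 5% mitochondrial share (y) against the 38 at or below it (x), as log10(CPM + 1), with the line of equality and dotted lines at 2-fold. Plat, Gdf9, H1foo, Mos, Zar1 and Bub1b lie far below the line, Ccnb1, Dazl and Btg4 within 2-fold of it, and Fth1, Ttn, Lars2 and Dcp2 far above.

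Transcripts that define the oocyte were among those most depleted. Mos, the kinase that starts the Erk cascade and holds the oocyte in MII, ran from 0 to 75.6 CPM (median 12.2) in the 21 oocytes and from 717 to 1511 CPM (median 1049) in the other 38, with no overlap. Summed, it was at 15.0 CPM above 5% and 1059 CPM below, a log2 ratio of -6.05. Zar1, an RNA-binding protein needed to store maternal mRNA, ran from 0.984 to 98.5 CPM (median 7.10) against 709 to 2187 CPM (median 1391), a log2 ratio of -5.88. In both genes the highest of the 21 oocytes was far below the lowest of the 38.

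Secreted products showed the same pattern. Plat, which encodes tissue-type plasminogen activator, ran from 1.44 to 129 CPM (median 41.2) against 2368 to 8473 CPM (median 4630), a log2 ratio of -6.89. Gdf9, a growth factor for cumulus cells, ran from 49.9 to 658 CPM (median 135) against 3989 to 11094 CPM (median 7632), a log2 ratio of -5.44. Bmp15, its partner growth factor, was lower by less: it ran from 326 to 3286 CPM (median 1074) against 2958 to 6496 CPM (median 4793), a log2 ratio of -1.89, and 20 of the 21 oocytes were below the lowest of the 38. All 13 tested members of the list of zona pellucida, secreted and egg surface proteins were at least 2-fold lower, where 38.2% of all tested genes were. Their median was -2.87 against -0.46 for all genes. The zona genes Zp3, Zp1 and Zp2 were at -3.07, -2.23 and -1.01.

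Maternal effect genes, whose products the early embryo needs, were mostly lower, with exceptions. Of 21 tested, 16 were at least 2-fold lower and 1 higher, with a median of -2.60, where all tested genes had 38.2% lower and 15.8% higher. H1foo, the oocyte linker histone, ran from 22.4 to 736 CPM (median 109) against 6815 to 12569 CPM (median 9271), a log2 ratio of -5.71. Padi6, Ooep and Nlrp5, of the subcortical maternal complex, were at -2.96, -4.04 and -1.53, and the DNA methyltransferase Dnmt1 was at -3.14. Zbed3, also counted in that complex, went the other way: it ran from 10980 to 61636 CPM (median 48566) against 13899 to 32672 CPM (median 26728), a log2 ratio of 0.81, and 16 of the 21 were above every one of the 38 while 2 were below all of them. Per ERCC count Zbed3 was at -1.30.

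In the cell cycle machinery of the MII arrest, levels of single members ranged from -6.24 to 1.27. Of 35 tested genes 17 were at least 2-fold lower, 2 higher and 16 in between, with a median of -0.84, where all tested genes had 38.2% lower, 15.8% higher and a median of -0.46. Ccnb1, the cyclin of the kinase that drives M phase, ran from 1454 to 8054 CPM (median 3213) against 1591 to 3811 CPM (median 2711). Summed, it was at 3791 CPM (exact Poisson interval 3776 to 3806) and 2652 CPM (2645 to 2658), a log2 ratio of 0.52 that became 0.03 with mitochondrial counts in the total and -1.59 per ERCC count. The sets overlapped, with 8 of the 21 above the 38 and 1 below. A processed pseudogene, Ccnb1-ps, was at 14.7 and 11.2 CPM, and reads shared between the copies cannot be assigned.

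The spindle checkpoint kinase Bub1b stood at the other end, from 0.287 to 111 CPM (median 17.2) against 1416 to 2732 CPM (median 1875), a log2 ratio of -6.24. Aurkc and Plk1, kinases of the meiotic spindle, were at -4.92 and -4.50, and the anaphase activator Cdc20 at -3.58. Its inhibitor in MII, Fbxo43, was at 0.33 and the checkpoint kinase Ttk at 0.78, while the kinase subunit Cks2 was at 0.69 with 6 oocytes above and 15 below all of the 38, and at -0.13 without oocytes 11 and 38. Pttg1, the separase inhibitor securin, ran from 21.3 to 3527 CPM (median 159) against 1572 to 3374 CPM (median 2308). Its log2 ratio was -1.37 with all 21 oocytes and -2.52 without oocytes 11 and 38.

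Of the stored mRNAs whose tails change during maturation, the group known to be activated by polyadenylation was near the share of all genes (38.2% lower, 15.8% higher). Of its 14 mRNAs 4 were at least 2-fold lower (Plat, Bub1b, Mos and Tex19.1), 1 higher and 9 in between, with a median of -0.35. Dazl, an RNA-binding activator of translation, ran from 95.9 to 3606 CPM (median 2201) against 1016 to 1757 CPM (median 1313), a log2 ratio of 0.59, or -1.52 per ERCC count. In 13 oocytes it was above all of the 38 and in 4, oocytes 2, 12, 13 and 40, below all of them. Spin1, a methyl-histone reader, was at 0.68 and Cnot6l, a deadenylase of CCR4-NOT, at 0.60.

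Btg4, the adaptor that brings CCR4-NOT to maternal mRNA, varied widely among the 21. It ran from 194 to 8197 CPM (median 1785) against 3635 to 6280 CPM (median 4430), a log2 ratio of -0.42. Oocytes 57, 58, 59 and 11, at 8093, 8197, 8166 and 7169 CPM, were above all of the 38, and 16 were below them, with oocyte 40 lowest at 194 CPM. With the median over oocytes the log2 ratio of Btg4 was -1.31.

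Of 11 mRNAs known to be deadenylated or degraded during maturation, 9 were at least 2-fold lower, with a median of -2.23, and Actb was higher (1.47). Most of the 9 also belong to the oocyte and secreted lists, so these counts are not independent of each other. Among 18 tested genes of deadenylation and decay 7 were at least 2-fold lower and 4 higher, with a median of -0.35. This was near all tested genes, with 38.2% lower, 15.8% higher and a median of -0.46. Dcp2, the decapping enzyme, ran from 368 to 2472 CPM (median 1325) against 67.5 to 203 CPM (median 115), with all 21 oocytes above all of the 38, a log2 ratio of 3.28 and of 1.17 per ERCC count. Pan3, Cnot6 and Cnot2 were at 1.73, 1.70 and 1.54, whereas Exosc10 of the nuclear exosome and Cnot11 were at -3.35 and -3.37. Of 21 tested genes of mRNA storage and translational control 10 were lower and 5 higher, among them Igf2bp2 at -5.28 and the translational repressor Pum2 at 2.24. The median of that list was -0.55, and 0.15 at a minimum of 20 CPM.

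**Figure D3:**
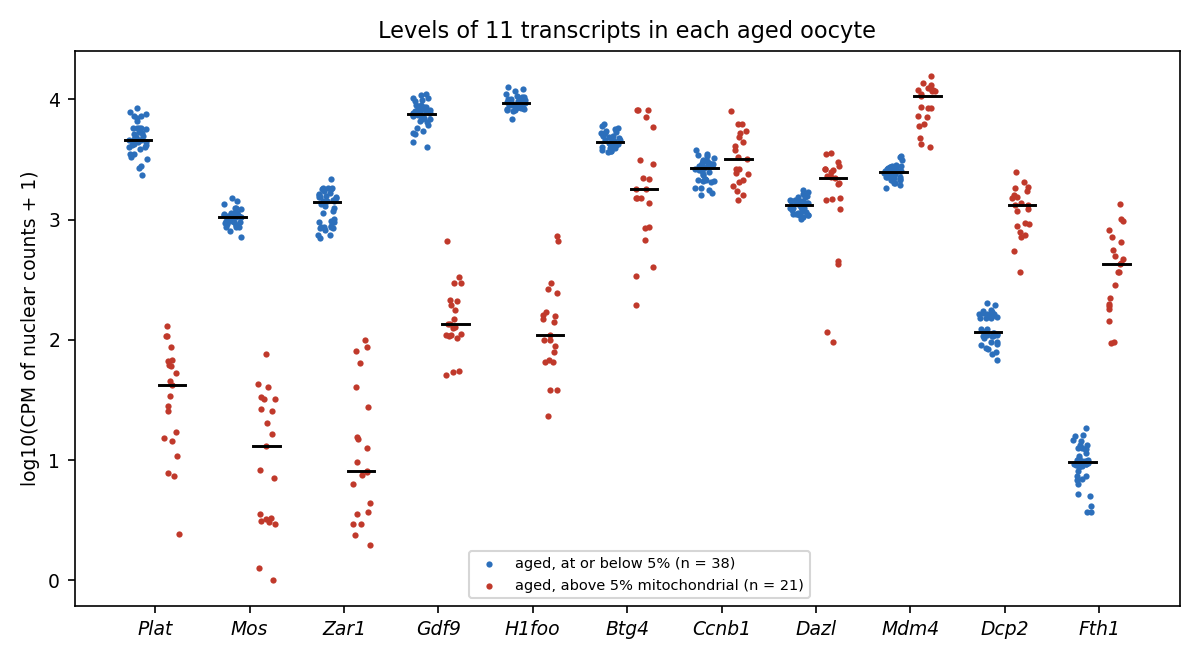
Level of 11 transcripts in each of 38 aged oocytes at or below 5% mitochondrial share and 21 above it, as log10(CPM of nuclear counts + 1), with a bar at each median. Plat, Mos, Zar1, Gdf9 and H1foo do not overlap and are lower above 5%, Btg4, Ccnb1 and Dazl overlap, and Mdm4, Dcp2 and Fth1 do not overlap and are higher above 5%.

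Fth1, the heavy chain of the iron store ferritin, had the highest ratio of the 7761 tested protein-coding genes. It ran from 93.4 to 1356 CPM (median 423) in the 21 oocytes and from 2.67 to 17.6 CPM (median 8.61) in the other 38, with no overlap, and from 3.58 to 16.7 CPM in the young. Summed, it was at 499 CPM (exact Poisson interval 493 to 504) and 8.77 CPM (8.41 to 9.14), a log2 ratio of 5.68 or 51.2-fold. Per ERCC count the log2 ratio was 3.57. With the cut moved to 20%, which places 5 of these oocytes in the lower set, it was 2.90.

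The other genes of iron handling and ferroptosis were lower, in between or slightly higher. Of 11 tested (of 15), Fth1 included, 6 were at least 2-fold lower and 2 higher, with a median of -1.14, against 38.2% lower and 15.8% higher among all genes. Ftl1, the light chain of ferritin, was at 3.80 CPM in the 21 and 7.27 CPM in the 38 (-0.79). The cystine importer subunits Slc3a2 and Slc7a11 were at -4.01 and -2.91, the ferritin autophagy receptor Ncoa4 at -1.40 and the transferrin receptor Tfrc at -0.88. The iron regulatory protein gene Ireb2 was at 1.01, with 14 oocytes above and 5 below all of the 38, and at -1.10 per ERCC count.

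The 12 highest ratios among protein-coding genes with a mean of at least 50 CPM were those of Fth1, Ttn (4.26), Fem1c (3.69), Lars2 (3.58), Zfp932 (3.47), Pnrc1 (3.41), 4930453N24Rik (3.31), Ttc3 (3.29), Dcp2, Gm10436 (3.16), Tigd2 (3.12) and Lcor (3.07). Ttn, which encodes the giant muscle protein titin, ran from 210 to 5819 CPM (median 1641) against 37.2 to 130 CPM (median 77.1). Lars2 spread widely, from 2032 to 102509 CPM (median 7356) against 208 to 3543 CPM (median 522), with 17 of the 21 above all of the 38. Fth1, Ttn, Fem1c, Ttc3, Dcp2 and Lcor were above all of the 38 oocytes in all 21. Of the 12, 7 (Fth1, Fem1c, Zfp932, Pnrc1, 4930453N24Rik, Ttc3 and Tigd2) were under 50 CPM in the 38 and reached the mean only through the 21, so the ranking is a description that the filter helped to set. Per ERCC count all 12 stayed above 0, from 0.96 for Lcor to 2.15 for Ttn and 3.57 for Fth1.

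The 12 lowest ratios of that level were those of Slc25a17 (-6.99), Plat, Tpra1 (-6.42), Serpine2 (-6.33), Lamtor3 (-6.32), Bub1b, Ube2t (-6.05), Mos, Rcn2 (-5.90), Zar1, Sumo2 (-5.85) and Bin2 (-5.81), and in all 12 every one of the 21 oocytes was below the 38. All 12 were under 50 CPM in the 21 and reached the mean through the 38. Slc25a17, a peroxisomal carrier, ran from 0 to 4.62 CPM (median 0.71) against 144 to 325 CPM (median 217). Serpine2 encodes a protease inhibitor that acts on plasminogen activators, and ran from 0 to 30.4 CPM (median 7.02) against 588 to 1091 CPM (median 793).

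The nuclear entry with the highest level in the 21 oocytes was CT010467.1, an annotated ribosomal RNA gene (GRCm38 chr17:39846353-39848827, minus strand). It took 2.81 to 40.6% of nuclear counts (median 7.80%) in the 21 oocytes, 0.890 to 4.25% (median 1.82%) in the other 38 and 0.223 to 1.24% in the young, and 17 of the 21 were above all of the 38. The highest value, 40.6%, was that of oocyte 40, which also had the highest mitochondrial share, 61.6%. Its log2 ratio was 1.95 and -0.16 per ERCC count. Ribosomal RNA has no poly(A) tail of the mRNA kind.

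Among the next highest, Mdm4, a negative regulator of p53, ran from 3981 to 15657 CPM (median 10584) against 1818 to 3365 CPM (median 2495), a log2 ratio of 1.90, and all 21 oocytes were above the 38. The ubiquitin ligase Trip12 was at 2.68, also with all 21 above. Ccdc6, Klf17, Tiparp and Gm1965 were at 2.94, 1.70, 1.62 and 1.61, and Tcl1, an Akt coactivator stored in the oocyte, at -0.22 with 3 above and 16 below. Per ERCC count Trip12 and Ccdc6 stayed above 0, at 0.56 and 0.83, and Mdm4, Klf17, Tiparp and Gm1965 were at -0.21, -0.41, -0.49 and -0.51.

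Lists of housekeeping complexes held more lower members than all tested genes, of which 38.2% were at least 2-fold lower and 15.8% higher. Of 50 tested (of 81 listed) nuclear-encoded subunits of the respiratory chain and ATP synthase, 42 were at least 2-fold lower and 0 higher, with a median of -1.82. Uqcrc2, of complex III, ran from 0.948 to 99.2 CPM (median 14.03) against 220 to 396 CPM (median 309), a log2 ratio of -3.66. Cox8a, of complex IV, shows how far a sum can rest on few oocytes: it ran from 0.332 to 1039 CPM with a median of 16.7 CPM, against 113 to 308 CPM (median 197), and its log2 ratio was -0.06 with all 21 oocytes and -2.12 without oocytes 11 and 38. For mt-Co1, a subunit of complex IV encoded in the mitochondrial genome, the direction was fixed by the choice of oocytes, and its level was 3647 to 72748 CPM of all gene counts (median 51489) against 1180 to 6465 CPM (median 2377).

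Proteasome subunits were lower in 27 of 30 tested (of 39), with 0 higher and a median of -2.14, from Psma5 at -4.92 to Psmd11 at 0.37. Of 48 tested cytosolic ribosomal protein genes (of 85) 35 were lower, 13 in between and 0 higher (median -1.72), and Rps2 and Rpl17 were at -3.80 and -3.35. Among 50 tested mitochondrial ribosomal protein genes (of 78) 35 were lower, 14 in between and 1, Mrpl19 (2.11), higher, with a median of -1.60.

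**Figure D4:**
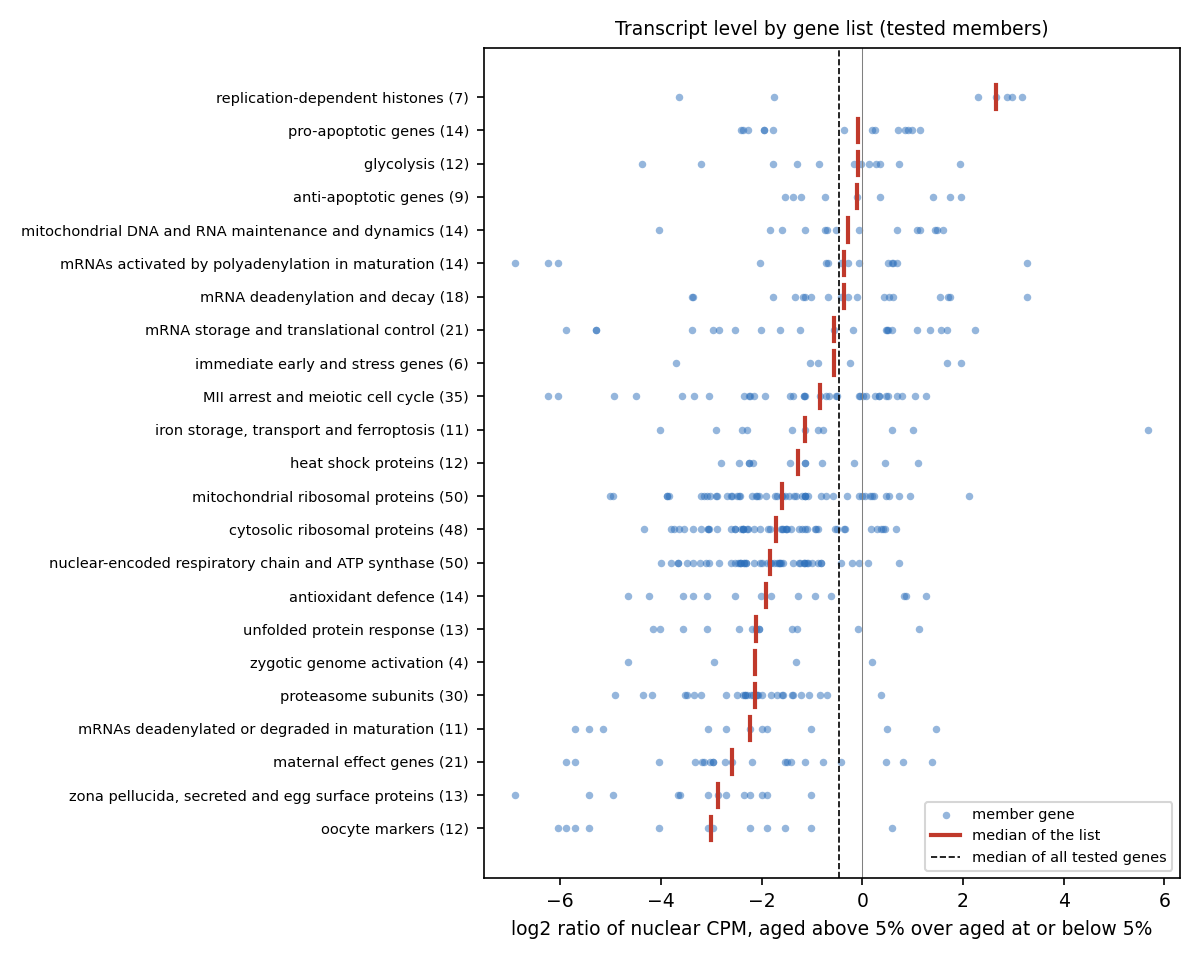
Log2 ratio of nuclear CPM, aged oocytes above 5% mitochondrial share over those at or below it, for the tested members of 23 gene lists with at least 4 tested members (number in brackets). Red bars are list medians and the dashed line is the median of all 8369 tested genes, -0.46; the list of oocyte markers has the lowest median, -3.01, and replication-dependent histones the highest, 2.65.

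Cell death genes went both ways, and of all tested genes 38.2% were lower and 15.8% higher. Of 14 tested pro-apoptotic genes (of 27) 6 were at least 2-fold lower and 1 higher (median -0.09), with Trp53 at -1.96, Cycs at -2.37 and the mitophagy receptor Bnip3l at 1.14, or -0.95 per ERCC count. Of 9 anti-apoptotic genes 3 were lower and 3 higher (median -0.10). Bcl2l10, the abundant Bcl2 relative of the oocyte, ran from 123 to 8142 CPM (median 1524) against 5315 to 8029 CPM (median 6748), a log2 ratio of -1.37, and Xiap, a caspase inhibitor, was at 1.96. Hsp90aa1, the inducible Hsp90, was at -1.44, and 8 of 12 heat shock genes were lower and 1, Hspd1 (1.11), higher (median -1.28).

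For the next 4 lists too, the shares over all tested genes are 38.2% at least 2-fold lower and 15.8% higher. The unfolded protein response list had 11 of 13 members lower and Atf4 higher (1.13, or -0.72 without oocytes 11 and 38), with a median of -2.11. Its sensor Ern1 was at -4.15 and the chaperone Hspa5 at -4.02. Of 14 antioxidant genes 9 were lower and 1 higher (median -1.92). Prdx1, a peroxiredoxin, ran from 2.73 to 382 CPM (median 52.7) against 985 to 1862 CPM (median 1248), a log2 ratio of -3.37, while Prdx2 was at 1.27 with 9 oocytes above and 5 below all of the 38, and at -0.83 per ERCC count. Of 6 immediate early and stress genes 2 were lower, among them Dusp1 at -3.71, and 2 higher, Cdkn1a (1.96) and Fosb (1.67). Of 12 glycolysis genes 4 were lower, with Ldhb, the lactate dehydrogenase of the oocyte, at -4.37, and 1 higher (median -0.09).

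Genes of mitochondrial upkeep went both ways, with 5 of 14 at least 2-fold higher, 4 lower and a median of -0.29. Of all tested genes, 15.8% were higher and 38.2% lower. Dnm1l, the fission enzyme, ran from 225 to 1312 CPM (median 582) against 170 to 276 CPM (median 218), a log2 ratio of 1.45 with 18 of the 21 above all of the 38, and its receptor Mff was at -4.03 with all 21 below. Tfam and Tfb2m, which are needed to transcribe mitochondrial DNA, were at 1.49 and 1.61. Per ERCC count Dnm1l was at -0.66, and 0 members of the list were at least 2-fold higher.

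Replication-dependent histones, whose mRNAs typically end in a stem-loop without a poly(A) tail, were the list with the highest median, 2.65 over 7 tested of 67 genes. Members low in the 38 could pass the filter through the 21 alone, so the filter may have helped to set this rank. In the 38, Hist1h4d and Hist1h1a were at 6.74 and 18.9 CPM. In this list 5 were at least 2-fold higher, Hist1h4d (3.16), Hist1h3f (2.98), Hist1h1a (2.88), Hist1h4c (2.65) and Hist1h2bj (2.30), and 2 lower, Hist1h2bc (-3.64) and Hist1h2aa (-1.75). Of all tested genes, 15.8% were higher and 38.2% lower. Per ERCC count the list median was 0.73, with 1 gene at least 2-fold higher and 2 lower. The summed level of the list was above all of the 38 in 11 of the 21 oocytes and below all of them in 1. Hist1h4d was above all of the 38 in 11 oocytes and Hist1h1a in 18. With a minimum of 1 CPM, which takes in more of the 67, the median was 1.17. The annotated stretches after the coding sequence are 822 and 742 bases long in Hist1h4d and Hist1h2bc, and 48 and 0 in Hist1h1a and Hist1h2aa. Whether the counted histone transcripts carried a poly(A) tail was not tested.

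In the summed counts, the nuclear ratios followed the length of the transcript and of its 3′ untranslated region (3′ UTR), the stretch after the coding sequence. The median was lowest for the shortest and above 0 for the longest. Per ERCC count the shortest and longest bins of 3′ UTR length were at -3.11 and -1.71. Over 7761 protein-coding genes in 5 bins of equal size by annotated 3′ UTR length, with median lengths of 234, 687, 1286.5, 2134.5 and 3934.5 bases, the median log2 ratios were -1.52, -0.81, -0.41, -0.21 and 0.23. In the shortest bin 62.3% of genes were at least 2-fold lower and 6.89% higher, and in the longest 22.4% were lower and 26.4% higher, where all protein-coding genes stood at 39.5% and 14.8%. Of the 89 protein-coding genes above all of the 38 oocytes in all 21, 47 lay in the longest bin and 4 in the shortest. Of the 864 below all of them, 78 lay in the longest and 320 in the shortest.

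Each of the 21 oocytes showed this slope and none of the other 73 did to the same degree. The median of the longest bin minus that of the shortest, computed per oocyte, ran from 1.05 to 3.09 (median 2.58) in the 21, from -0.21 to 0.27 (median 0.02) in the other 38 and from -0.16 to 0.32 (median 0.12) in the young. The lowest values were those of oocytes 40, 38, 11 and 59, at 1.05, 1.17, 1.26 and 1.32. Computed per oocyte, the longest bin itself ran from -2.02 to 0.12 (median -0.21) in the 21, so in most of them it was not higher. The shortest bin ran from -3.34 to -1.15 (median -2.93). In the summed comparison of the 38 with the young, the shortest and longest bins were at 0.19 and 0.08.

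Other properties of the transcript run along with 3′ UTR length. Transcript length gave medians of -1.50 to 0.20 from the shortest to the longest bin, a span close to that of the 3′ UTR. Coding length gave -0.94 to -0.16 and GC content 0.05 to -0.94 from the lowest to the highest. Within each bin of GC content, of coding length and of expression level, the genes of the longest 3′ UTR bin had a higher median than those of the shortest. In the bin of highest GC content the medians were 0.07 (89 genes) and -1.60 (525 genes), and in the bin of highest level 0.14 and -2.23. Over 3090 genes with a mean of at least 50 CPM the medians of the same bins were -1.60, -0.89, -0.13, 0.01 and 0.51. The lengths are those of the annotation, and the ends used in these oocytes were not measured.

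**Figure D5:**
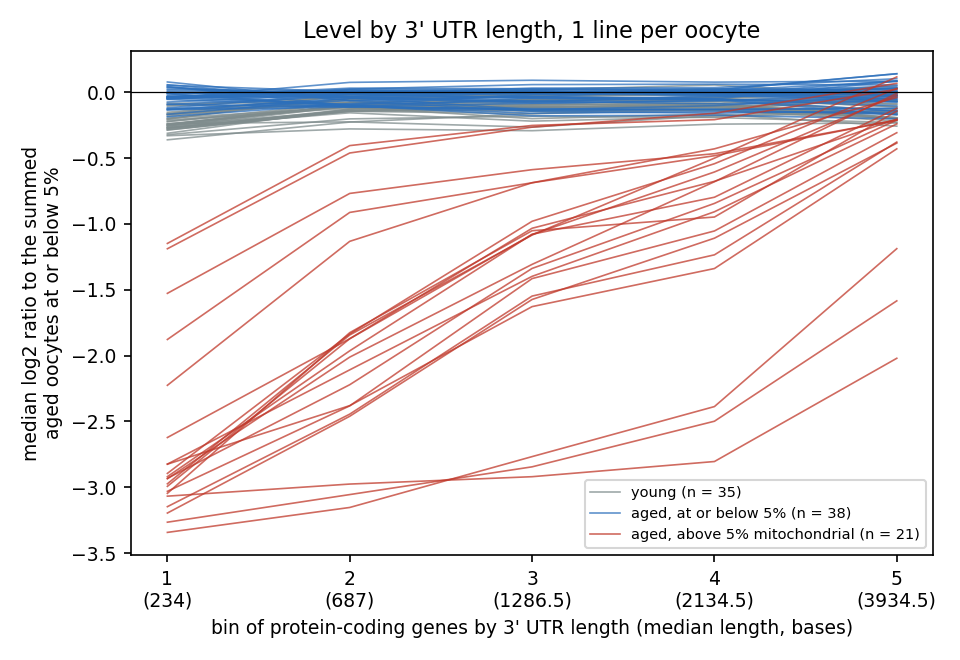
Median log2 ratio of protein-coding genes to the summed 38 aged oocytes at or below 5% mitochondrial share (y), by bin of annotated 3′ UTR length from shortest to longest (x), with 1 line per oocyte for 21 aged oocytes above 5%, the 38 and 35 young oocytes. In lines above 5% the longest bin exceeds the shortest by 1.05 to 3.09, and in the others the difference is -0.21 to 0.32.

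The 3′ ends of kept and lost transcripts are shown next, because the elements that set the poly(A) tail lie there. Each line gives 30 bases from the last 100 of the annotated transcript, 5′ to 3′, read from the GENCODE M21 transcripts on GRCm38, with capitals marking the polyadenylation signal AATAAA or the cytoplasmic polyadenylation elements TTTTAT and TTTTAAT.
Ccnb1: ctttatgttgctAATAAAcatagttttcga
Dazl: cttgtatacacgAATAAAacctttttttca
Spin1: tctgtaagtaatTTTTATaattatgatgta
Mos: atatttttaggaAATAAAgttaccacgaac
Zar1: ataaagcctgtgAATAAAaggtattgcaaa
Bub1b: cactgtgtaTTTTATAATAAAatagttttt
Plat: gtatatttataTTTTAATctattttagttt
Fth1: accatttcttcaAATAAAgaattttggtac

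Ccnb1 (chr13:100778656-100778685, minus strand), Dazl (chr17:50279400-50279429, minus) and Spin1 (chr13:51152473-51152502, plus) kept their share, and their 3′ UTRs are 1028, 1852 and 3385 bases long. Mos (chr4:3870661-3870690, minus), Zar1 (chr5:72577117-72577146, minus), Bub1b (chr2:118641556-118641585, plus) and Plat (chr8:22782745-22782774, plus) were lost, with 3′ UTRs of 126, 146, 272 and 738 bases. Fth1 (chr19:9985061-9985090, plus) has a 3′ UTR of 150 bases and the highest ratio, against the direction of the slope.

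The motifs themselves set kept and lost transcripts apart little. All 8 of these genes hold 1 AATAAA in the last 100 bases. Over 7761 protein-coding genes the median log2 ratio was -0.47 with AATAAA (5327 genes) and -0.60 without. Genes with TTTTAT (1299, or 16.7%) had a median of -0.71 and those without it -0.48, and genes with TTTTAAT (503) had -0.50 against -0.53. Of all 21841 annotated protein-coding genes, 12.9% held TTTTAT, 4.64% TTTTAAT and 61.5% AATAAA in the same window. Motifs were searched on the transcript strand, and TTTTAT and AATAAA share no end and so cannot overlap: in Bub1b they lie end to end. In the shortest 3′ UTR bin genes with TTTTAT had a median of -2.02 and genes without it -1.42, and in the longest 0.01 and 0.27. A match describes these letters in this window and is not evidence of an active element.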

How the data were processed

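For 94 single oocytes the deposited values are raw gene counts, whole numbers that were not normalised. STAR 2.7.10b, HTSeq 0.13.5 and mm10 are named per the submitters' processing notes, without roles; the annotation and strand setting are not given in the sources used here. Antisense and overlapping genes therefore cannot be told apart. An unnamed empty column was dropped, 92 ERCC entries were kept apart, and 0 columns were identical. A second table, of pooled oocytes, was not used.

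Oocytes were split at 5% mitochondrial share. Counts were summed per set and scaled to nuclear counts; genes with a mean of at least 5 CPM were compared, and a 2-fold ratio is a description, not a test. Poisson and binomial intervals are exact at 95% confidence (scipy 1.17.1). TMM factors (edgeR 4.0.16) served as an alternative. Gene types, lengths and sequences came from GENCODE M21 on GRCm38 (8353 of 8369 genes matched by symbol, longest coding transcript). Mitochondrial-like genes were found by 31-base words. The scripts were tested on simulated data.

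The members and 26 gene lists were chosen with earlier results of these data known. Named are the given markers, the 4 highest members per list, the 12 highest and lowest ratios at 50 CPM and the 12 highest levels; other list members were named after their values were seen.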

Additional observations from a re-analysis of the deposited data

How the results depend on the processing

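Another pseudocount cannot change the sign of a ratio, and other minimum levels or protein-coding genes alone do not enter the ratio of a gene. Mitochondrial counts in the total and TMM factors shift all genes nearly alike, by less than 2-fold, so they cannot turn a 2-fold ratio. With the mean over oocytes, which could, 0 of the named genes at least 2-fold apart changed sign. Among named genes less than 2-fold apart, Ccnb1-ps, Fbxo43 and Psmd11 went to -0.08, -0.15 and -0.11 with mitochondrial counts in the total. Cox8a went to 0.13 with TMM factors. No list median of at least 1 in size changed sign, where 25 or 26 lists had a value; of smaller ones, storage and translational control went to 0.15 and pro-apoptotic genes to 0.70 at 20 CPM, anti-apoptotic genes to 0.13 at 1 CPM, the 2 blood markers to -0.44 per ERCC count, pro-apoptotic, anti-apoptotic and glycolysis genes to 0.08, 0.07 and 0.08 with TMM factors, and glycolysis to 0.03 without oocytes 37, 57, 58 and 59. The count at least 2-fold lower was 1879 of 5202 genes at a minimum of 20 CPM, against 3194 of 8369 at 5 CPM. With the median over oocytes, the 3′ UTR difference of the summed ratios, 1.75, became 2.76, and Atf4 turned to -0.84. With mitochondrial counts in the total, 679 genes were at least 2-fold higher, and 43 were higher in all 21 oocytes. TMM factors moved the median of all genes to -0.28. Genes with at least 5 counts numbered 6936 at the median, against 9369 with any count.

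With the threshold at 10%, 33 of 8282 genes were higher and 105 lower in every oocyte above it. At 20% they were 34 and 93 of 8259. Atf4 was at -1.18 at 10% and at -1.68 at 20%, and Prdx2 at -0.25 at 20%. These thresholds place oocytes with a share over 5% in the lower set. Without oocytes 11 and 38, Atf4 was at -0.72. Cks2, at 0.69, went to -0.13 without them, -1.98 with the median over oocytes, and -0.35 and -1.83 at these thresholds.

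Per ERCC count 43 genes were at least 2-fold higher, 6957 lower and 0 higher in all 21 oocytes, and the median was -2.31. On that scale 10 named genes that were higher by less than 2-fold, Ccnb1 and Dazl among them, had ratios of -1.77 to -1.30, and of those at least 2-fold higher 19 turned negative: Ireb2 (-1.10), Hspd1 (-0.97), Bnip3l (-0.95), Atf4 (-0.94), Prdx2 (-0.83), Dnm1l (-0.66), Actb (-0.62), Cnot2 (-0.55), Gm1965 (-0.51), Tiparp (-0.49), Tfb2m (-0.46), Tfam (-0.43), Klf17 (-0.41), Cnot6 (-0.37), Pan3 (-0.37), Mdm4 (-0.21), Fosb (-0.21), CT010467.1 (-0.16) and Xiap (-0.12). With the median over oocytes per ERCC count, 89 of 7559 genes were higher, 6290 lower and the median was -2.99. In that setting Atf4 was at -2.73, Prdx2 at -1.51, Fosb at -1.41, Mrpl19 at -0.74, Ireb2 at -0.65 and Hspd1 at -0.63. Pan3 was at -0.56, Tfam at -0.41, Cnot2 at -0.36, Dnm1l at -0.18, Bnip3l at -0.13, Actb at -0.10 and Gm1965 at -0.085. Without oocytes 37, 57, 58 and 59 the ERCC scale gave, of 8371 genes, 128 higher, 5873 lower, 15 higher in every oocyte and a median of -1.82. Ireb2 was then at -0.37, Bnip3l at -0.30, Hspd1 at -0.30, Atf4 at -0.25, Prdx2 at -0.22 and Actb at -0.011.

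The settings that leave out oocytes, the ERCC median and the 3′ UTR settings were chosen after seeing the data, and the cause of the changes was not tested. No paired analysis was possible because the single-oocyte columns carry no pairing and the pools that share replicate numbers were not used.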

Other observations

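Within the mitochondrial counts, the makeup overlapped between the sets. The ribosomal RNA mt-Rnr2 took 23.6 to 55.4% of mitochondrial counts (median 36.4%) in the 21 oocytes above 5% and 22.3 to 46.3% (median 38.4%) in the other 38, and mt-Co1 took 5.38 to 23.9% (median 11.8%) against 9.60 to 21.8% (median 13.9%). Relative to all gene counts, summed levels of single mitochondrial genes were 11.4-fold higher for mt-Nd6, 16.6-fold for mt-Co1, 24.9-fold for mt-Nd1 and 29.3-fold for mt-Co3. That mitochondrial genes were higher was fixed by the choice of oocytes, which used their sum. In the young, the 2 mitochondrial ribosomal RNAs took 19.7 to 42.8% of mitochondrial counts (median 30.2%), against 25.2 to 54.5% (median 46.0%) in the 38 and 28.2 to 67.0% (median 44.3%) in the 21.

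Of the nuclear genes that were higher, 11 are annotated pseudogenes in which at least 20% of 31-base words also occur in the mitochondrial genome. Reads of such stretches cannot be assigned to the nucleus or the organelle by sequence alone. Gm28661 on chromosome 1, with 100% of its words shared, ran from 68.8 to 19704 CPM in the 21 oocytes and from 4.16 to 111 CPM in the 38. Summed over the 11, the level ran from 485 to 31637 CPM (median 5987) against 54.2 to 264 CPM (median 106), with no overlap, and 11 of the 43 genes that were at least 2-fold higher per ERCC count were of this kind. They are counted as nuclear in every total given above. All but Gm4076 are among the genes at least 16-fold higher, and all but Gm4076 and Gm28661 among those above the 38 in all 21 oocytes. Where their reads come from the organelle, their direction was fixed by the choice of oocytes. Of the 43, 21 were protein-coding.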
